A study of Mus musculus with 6 samples.

Results

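The genes described here are 7 proteases of the ADAMTS family that cut proteoglycans (Adamts1, Adamts4, Adamts5, Adamts8, Adamts9, Adamts15 and Adamts20), the inhibitor Timp3 and the substrate versican (Vcan). The 9 genes were chosen by symbol out of 48397 gene names counted, and they were chosen with earlier values of the same prolactin and control comparison known. Their changes under prolactin are therefore a description. Whether the test over all genes called a member is stated as part of that description and supports nothing further. All 9 passed the filter on low counts, although Adamts20 did so on as few as 12 reads in a library.

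RNA was taken from pancreatic islets isolated from wild-type C57B6 mice and left overnight in RPMI-1640 with serum to recover. The control group was then given the solvent DMSO and the prolactin group mouse prolactin made as a recombinant protein, at 500 ng/mL, both for 24 h. Prolactin is a pituitary hormone to which islets respond in pregnancy. Each group had 3 libraries of polyadenylated RNA, with 230833584 to 530296257 reads assigned to genes per library. The labels describe the cell type as mixed and give neither the age nor the sex of the mice, nor do they state if the replicates are separate animals or cultures. The p-values below thus reflect the scatter among these libraries alone, which could be technical. All comparisons below are between whole islets, in which fewer cells of a type and less RNA per cell cannot be told apart.

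ADAMTS proteases are secreted zinc enzymes with thrombospondin repeats, made as inactive precursors whose prodomain is removed by furin and related convertases. The members of the set cut the core proteins of hyaluronan-binding proteoglycans, such as versican and aggrecan, and so loosen the hydrated matrix around cells. TIMP3 is held in the matrix by sulfated sugars and is a strong inhibitor of ADAMTS4 and ADAMTS5, and the endocytic receptor LRP1 clears several of these enzymes from the cell surface. In the pancreas, hyaluronan and versican lie in the matrix around and within islets, beside the basement membrane of the capillaries.

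The start sites of the genes differ in sequence, and the windows of 3 of them are shown because they belong to the protease with the highest level, to a protease whose prolactin libraries were also all above the control libraries, and to the substrate. Each is the 250 bases before the RefSeq transcription start on GRCm38.p6 (mm10), read 5′ to 3′ along the gene's own strand. Capitals mark a TATAAA box or the GC box GGGCGG on either strand, where it reads CCGCCC on the lower one.
Adamts1, chr16:85803114-85803363, minus strand: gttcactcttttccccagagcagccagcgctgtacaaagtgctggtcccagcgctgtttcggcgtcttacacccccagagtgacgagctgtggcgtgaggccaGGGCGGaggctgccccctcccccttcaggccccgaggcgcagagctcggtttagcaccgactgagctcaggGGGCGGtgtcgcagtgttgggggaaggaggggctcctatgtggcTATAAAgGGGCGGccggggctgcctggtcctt
Adamts9, chr6:92943535-92943784, minus strand: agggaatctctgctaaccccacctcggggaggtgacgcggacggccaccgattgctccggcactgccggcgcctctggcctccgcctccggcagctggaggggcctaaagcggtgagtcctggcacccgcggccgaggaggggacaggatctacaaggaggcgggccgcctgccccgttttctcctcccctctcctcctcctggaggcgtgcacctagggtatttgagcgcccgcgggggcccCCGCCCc
Vcan, chr13:89742513-89742762, minus strand: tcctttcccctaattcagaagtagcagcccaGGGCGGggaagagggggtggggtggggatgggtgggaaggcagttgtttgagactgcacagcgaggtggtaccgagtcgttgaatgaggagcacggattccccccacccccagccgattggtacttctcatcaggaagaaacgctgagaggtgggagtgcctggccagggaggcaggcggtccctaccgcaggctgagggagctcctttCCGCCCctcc
The Adamts1 window held a TATAAA 32 bases before the start and 3 GC boxes, at 147, 76 and 25 bases before it. Of the windows of all transcripts in the table, 12.4% held TATAAA and 32.7% a GC box. Adamts9 had 1 GC box, 7 bases before the start, and Vcan had 2, at 219 and 10 bases. The GC content was 65.6% for Adamts1, 71.2% for Adamts9 and 62.4% for Vcan, against a median of 52.4% over all windows. RefSeq windows were at hand for 5 of the 9 genes; the others with one were Timp3, with 1 GC box, and Adamts20, with 3. The RefSeq start used for Adamts20 lies inside its GENCODE gene model, and the Timp3 window reaches into the first GENCODE exon, so these windows are not plainly upstream of the gene models counted. The letters TTCNNNGAA, the core to which STAT5 binds downstream of the prolactin receptor, were in 0 of the 5 windows and in 7.02% of all windows. The AP-1 letters TGANTCA were also in 0 of the 5 windows and in 6.75% of all. Both motifs were searched on both strands and read the same on each.

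Levels of different genes were compared as CPM per kb, reads scaled to library size (CPM) divided by the length of the gene's exons. In control islets Adamts1 was the most abundant member at 8.90 ± 0.31 CPM per kb (SD, n = 3), followed by Timp3 at 3.71 ± 0.47 and Adamts4 at 1.73 ± 0.13. Vcan, at 0.855 ± 0.196, and Adamts9, at 0.639 ± 0.043, came next. Adamts5 stood at 0.279 ± 0.048 and Adamts8 at 0.235 ± 0.061, neighbours whose spreads overlapped. Adamts15 had 0.068 ± 0.013 and Adamts20 0.011 ± 0.004 CPM per kb. The order by mean was the same in prolactin islets, from 11.8 CPM per kb for Adamts1 to 0.012 for Adamts20. Adamts1 alone made up 75.0% ± 1.4 of the summed CPM per kb of the 7 proteases in control and 72.8% ± 1.6 in prolactin islets.

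**Figure D1:**
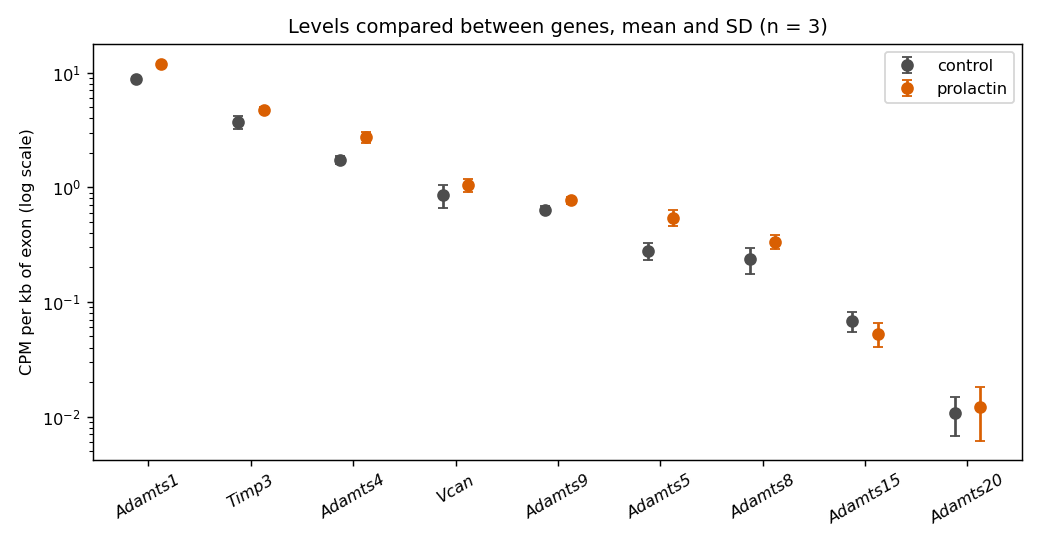
Level of each of the 9 genes in CPM per kb of exon on a log axis, as the mean of 3 libraries with its SD, for control (grey) and prolactin (orange). The genes run from Adamts1, at 8.90 and 11.8 CPM per kb, down to Adamts20, at 0.011 and 0.012.

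The first question is how the proteases stood after a day of prolactin. The transcripts of Adamts1, Adamts4 and Adamts5 were higher in prolactin islets, those of Adamts8 and Adamts9 were higher by amounts that missed the threshold of the test over all genes, and the rare Adamts15 and Adamts20 had overlapping groups. A gene is called here when its adjusted p in edgeR's quasi-likelihood test over 23924 genes lies under 0.05. Of the 9 members 3 were called higher and 0 lower (raw, unadjusted p under 0.05 for 6 higher and 0 lower; DESeq2 called 0 lower and limma-voom 0 lower). Over all genes tested, 0.652% were called higher and 0.104% lower. Raw p was under 0.05 for 1861 higher and 1599 lower of the 23924 genes. For 6 members all prolactin libraries lay above all control libraries, which held for 11.3% of all genes tested. Since the members were chosen with this comparison known, nothing is read from these shares.

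Adamts1, an enzyme needed for ovulation and for versican cleavage in several tissues, had 47.3, 45.5 and 48.8 CPM in the control libraries and 64.8, 61.2 and 62.4 CPM in the prolactin libraries. The groups were far apart against their spread, with means of 47.2 ± 1.64 and 62.8 ± 1.82 CPM (SD, n = 3). The log2 change was 0.41 (SE 0.051), or 1.33-fold, and the gene was called higher. The Adamts1 gene lies on chromosome 16 from 85793827 to 85803113 of mm10, on the minus strand.

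Adamts4, named aggrecanase 1 for its action on cartilage aggrecan, had 9.05, 7.80 and 8.17 CPM in control and 14.8, 11.9 and 12.7 CPM in prolactin libraries. Prolactin replicate 1 was the highest of the 6, and the lowest prolactin library was still above the highest control library. The log2 change was 0.65 (SE 0.096), or 1.57-fold, and the gene was called higher.

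Adamts5, aggrecanase 2 and the main aggrecan-cutting enzyme of mouse cartilage, had the greatest change among the members. Its levels were 2.70, 2.05 and 2.01 CPM in control libraries and 5.17, 4.21 and 3.86 CPM in prolactin libraries. In both groups replicate 1 was the highest, and the groups did not overlap. The log2 change was 0.97 (SE 0.154), or 1.95-fold, and the gene was called higher. Adamts5 is the neighbour of Adamts1 on chromosome 16 (85858170 to 85901125, minus strand), 55056 bp away with 0 gene models between them.

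The changes of Adamts5 and Adamts4 were greater than that of Adamts1, which shows in their ratios. The ratio of Adamts1 to Adamts5, in CPM per kb, was 26.7, 33.8 and 37.1 in control and 19.1, 22.2 and 24.7 in prolactin libraries. For Adamts1 to Adamts4 it was 4.74, 5.30 and 5.42 against 3.98, 4.67 and 4.46. Both ratios had groups that did not overlap, and both were left without a test because they derive from the values that chose the members. The share of Adamts1 in the summed proteases, 73.4%, 75.6% and 76.1% in control and 71.0%, 73.7% and 73.7% in prolactin libraries, did overlap between the groups.

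Adamts8, a weak proteoglycanase first described as an inhibitor of vessel growth, had 1.39, 1.04 and 0.829 CPM in control and 1.81, 1.43 and 1.41 CPM in prolactin libraries. The lowest prolactin library stood only just above the highest control library. The log2 change was 0.51 (SE 0.201), and the gene was not called. The change was 0.35 without control replicate 3 and 0.73 without control replicate 1. Adamts9, a long protease that also works inside the secretory pathway and at the base of cilia, had 9.46, 9.07 and 10.3 CPM in control and 12.4, 11.5 and 10.8 CPM in prolactin libraries. Its log2 change was 0.26 (SE 0.080), or 1.20-fold, with prolactin replicate 3 close to control replicate 3, and it was not called.

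Adamts15 and Adamts20 had the fewest reads of the set. Adamts15, a versican-cutting enzyme of muscle development whose gene lies 20109 bp from Adamts8 on chromosome 9, had 0.445, 0.313 and 0.452 CPM in control and 0.401, 0.275 and 0.264 CPM in prolactin libraries, from 64 to 239 reads each. Its log2 change was -0.37 (SE 0.236), with overlapping groups. Adamts20, the gene mutated in belted mice with failed spread of pigment cells, had 0.138, 0.074 and 0.078 CPM in control and 0.052, 0.116 and 0.159 CPM in prolactin libraries, from 12 to 74 reads. Both its highest and its lowest value were in the prolactin group, and its log2 change of 0.14 (SE 0.431) was well inside its error. For neither gene could a change be told from the scatter of the libraries.

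**Figure D2:**
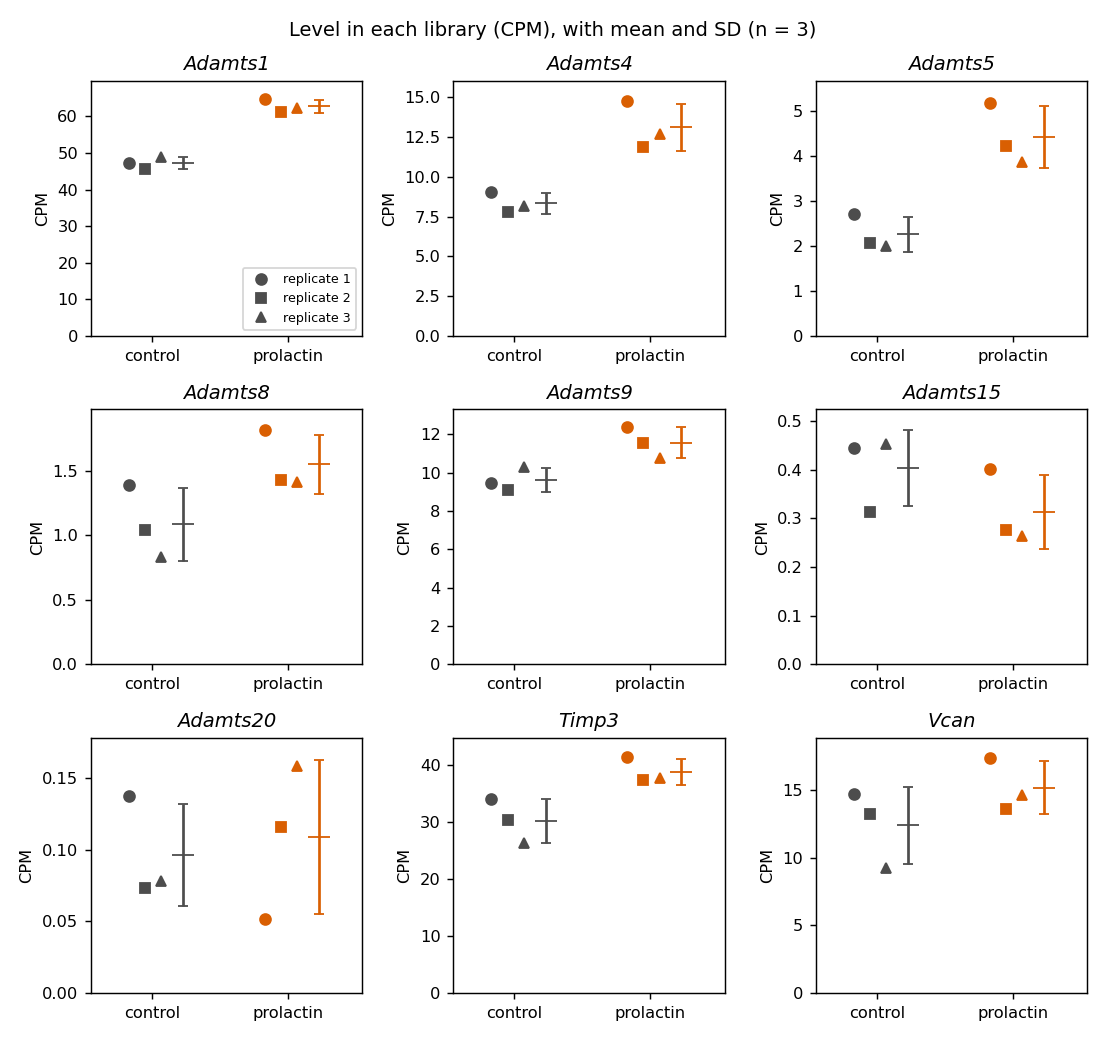
CPM of each of the 9 genes in every library, on linear axes from 0 that differ between panels; symbols are replicates 1 to 3 and the bars show the mean with its SD (n = 3). Adamts1, Adamts4, Adamts5, Adamts8, Adamts9 and Timp3 had all prolactin libraries above all control libraries; Adamts15, Adamts20 and Vcan overlapped.

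The inhibitor Timp3 stood at 34.0, 30.3 and 26.3 CPM in control and 41.4, 37.2 and 37.7 CPM in prolactin libraries. The groups did not overlap, and control replicate 3 was the lowest of the 6. The log2 change was 0.36 (SE 0.091), or 1.28-fold, and Timp3 was not called by edgeR with its filter on low counts, but was with no filter. Timp3 overlaps Syn3, a synapsin gene on the opposite strand, and 1733 bp of its exons (21.3%) are shared with Syn3 exons; the counting did not use strand, so reads there cannot be told apart. Syn3 received 4506 reads over the 6 libraries and Timp3 61775.

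Set against their inhibitor, the proteases as a whole had overlapping groups. The summed proteases had 11.9 ± 0.45 CPM per kb in control and 16.3 ± 0.82 in prolactin islets (SD, n = 3). Divided by Timp3 in the same library, they gave 2.91, 3.05 and 3.75 in control and 3.39, 3.43 and 3.45 in prolactin libraries. The prolactin values lay inside the range of the control values, but control replicate 3 alone set the top of that range. Control replicates 1 and 2 lay below every prolactin library. These ratios are of transcripts, which were measured here, and not of active enzyme or inhibitor.

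The substrate Vcan, a large chondroitin sulfate proteoglycan that binds hyaluronan, had 14.7, 13.2 and 9.20 CPM in control and 17.4, 13.5 and 14.6 CPM in prolactin libraries. The groups overlapped, since prolactin replicates 2 and 3 lay below control replicate 1, and control replicate 3 was the lowest. The log2 change was 0.29 (SE 0.161), and the gene was not called. Without control replicate 3 the change was 0.12. The summed proteases per Vcan came to 14.5 ± 3.95 in control and 15.6 ± 1.20 in prolactin libraries (SD, n = 3), again with overlap. Counts per gene name do not separate the splice forms of versican, which differ in how many sugar chains they carry.

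The authors' deposited table, made with DESeq2, lists Adamts1 with a log2 change of 0.41, Adamts4 with 0.65 and Adamts5 with 0.97, all higher at an adjusted p under 0.05. It also lists Adamts9 (0.27) and Timp3 (0.36) under that threshold, so 5 of the 9 members in all. Of the genes in the authors' deposited table with an adjusted p, 18913 in all, 4.1% were higher at that threshold, and nothing is read from the comparison of these counts. Adamts8, Vcan and Adamts15 were not under it there, and Adamts20 has no adjusted p.

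How far the calls depended on single libraries was examined next. Adamts1 was called in 13 of 16 alternative analyses, with a log2 change between 0.38 and 0.44, and was not called without prolactin replicate 2, without prolactin replicate 3 or with the sum of these as 1 sample. Adamts4 (0.56 to 0.72) and Adamts5 (0.83 to 1.12) were each called in 11 of 16; they also lost their calls without control replicate 2 and without prolactin replicate 1. Without prolactin replicate 2 or 3 no member was called (0), and without control replicate 2 or prolactin replicate 1 there was 1, Adamts1. The sign of the change of Adamts1, Adamts4, Adamts5, Adamts8, Adamts9, Timp3 and Vcan was positive in all 16.

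**Figure D3:**
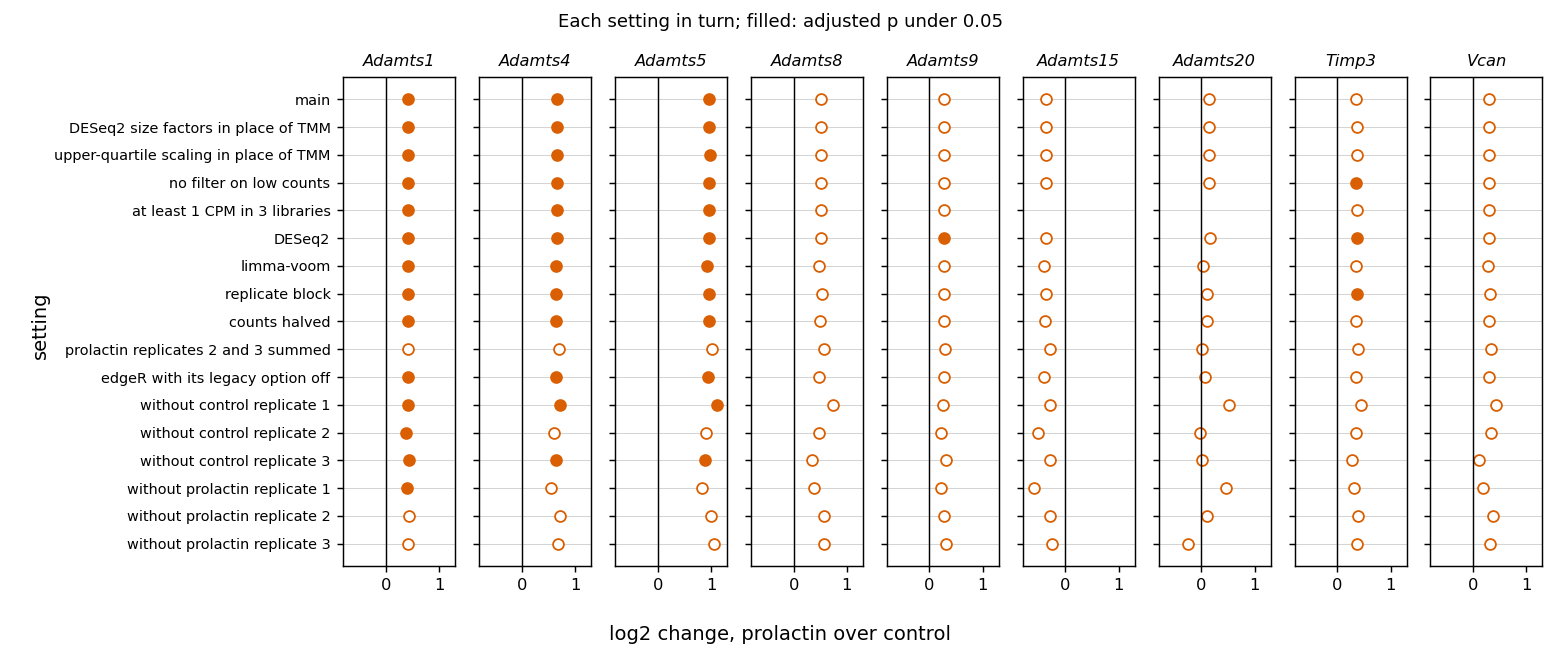
Log2 change of prolactin over control for each gene under the reported analysis (top line, main) and each alternative below it; filled symbols have an adjusted p under 0.05. The changes of Adamts1, Adamts4 and Adamts5 lie at 0.38 to 0.44, 0.56 to 0.72 and 0.83 to 1.12, while Adamts20 lies on both sides of 0.

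Whether relatives of these genes moved was read from 9 lists with 109 genes, of which 105 were tested. Of these, 80 had a positive change and 1 was called higher and 0 lower (raw, unadjusted p under 0.05 for 39 higher and 4 lower; DESeq2 called 22 higher and 0 lower, and limma-voom 1 and 0). Their median log2 change was 0.25, beside 0.0004 over all genes tested. Of all 23924 genes tested, 11980 had a positive change, and 0.652% were called higher and 0.104% lower. Raw p was under 0.05 for 1861 higher and 1599 lower of them. DESeq2 called 776 higher and 303 lower of 18913 genes, and limma-voom 156 and 21. The 1 call among 105 was near the share over all genes, and nothing is read from it.

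Among the ADAMTS proteases outside the set, 11 of 12 were tested and 10 had a positive change, with a median of 0.26. None was called (0 by edgeR, 4 higher by raw p under 0.05, 3 by DESeq2, 0 by limma-voom). The most abundant per kb were Adamts6, Adamts18 and Adamts2. Adamts2, which trims the amino end of fibrillar procollagens, had 10.1, 9.51 and 7.02 CPM in control and 14.6, 12.7 and 12.5 CPM in prolactin libraries, with a log2 change of 0.58 (SE 0.130) and an adjusted p of 0.0909 in edgeR's test. Adamts6, an enzyme that acts on fibrillin-rich matrix, had a log2 change of 0.22 and Adamts18 of 0.12.

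The 6 ADAMTS-like genes encode secreted proteins with the ancillary domains of the family and no protease domain. Of the 6, 5 had a positive change, with a median of 0.39, and 1 was called higher by edgeR (4 higher by raw p under 0.05, 4 by DESeq2, 1 by limma-voom). Adamtsl1 rose from 2.87, 2.62 and 2.09 CPM in control to 4.59, 3.88 and 4.33 CPM in prolactin libraries, a log2 change of 0.76 (SE 0.134) with an adjusted p of 0.0472 in edgeR's test. Its adjusted p ranged from 1.02e-06 to 0.219 over the 16 alternatives and was under the threshold in 10. The call was lost without control replicate 1 or 2 and without any one of the prolactin libraries, with a change of 0.64 to 0.86 throughout. Adamtsl2, Adamtsl4 and Adamtsl5 had changes of 0.42, 0.37 and 0.46 with no overlap of the groups; edgeR did not call them and DESeq2 did. Adamtsl3 and Papln had changes of 0.24 and -0.20 with overlapping groups.

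Inhibitors other than Timp3 gave no call (0 of 4 tested by edgeR, 0 by raw p under 0.05, 0 by DESeq2, 0 by limma-voom). Timp1 and Timp2, which act mainly on matrix metalloproteinases, had log2 changes of 0.25 and 0.25, and Reck, a membrane-anchored inhibitor, of -0.10, all with overlapping groups. Timp1 had 27.4 ± 6.69 CPM in control and 32.6 ± 5.21 in prolactin islets.

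**Figure D4:**
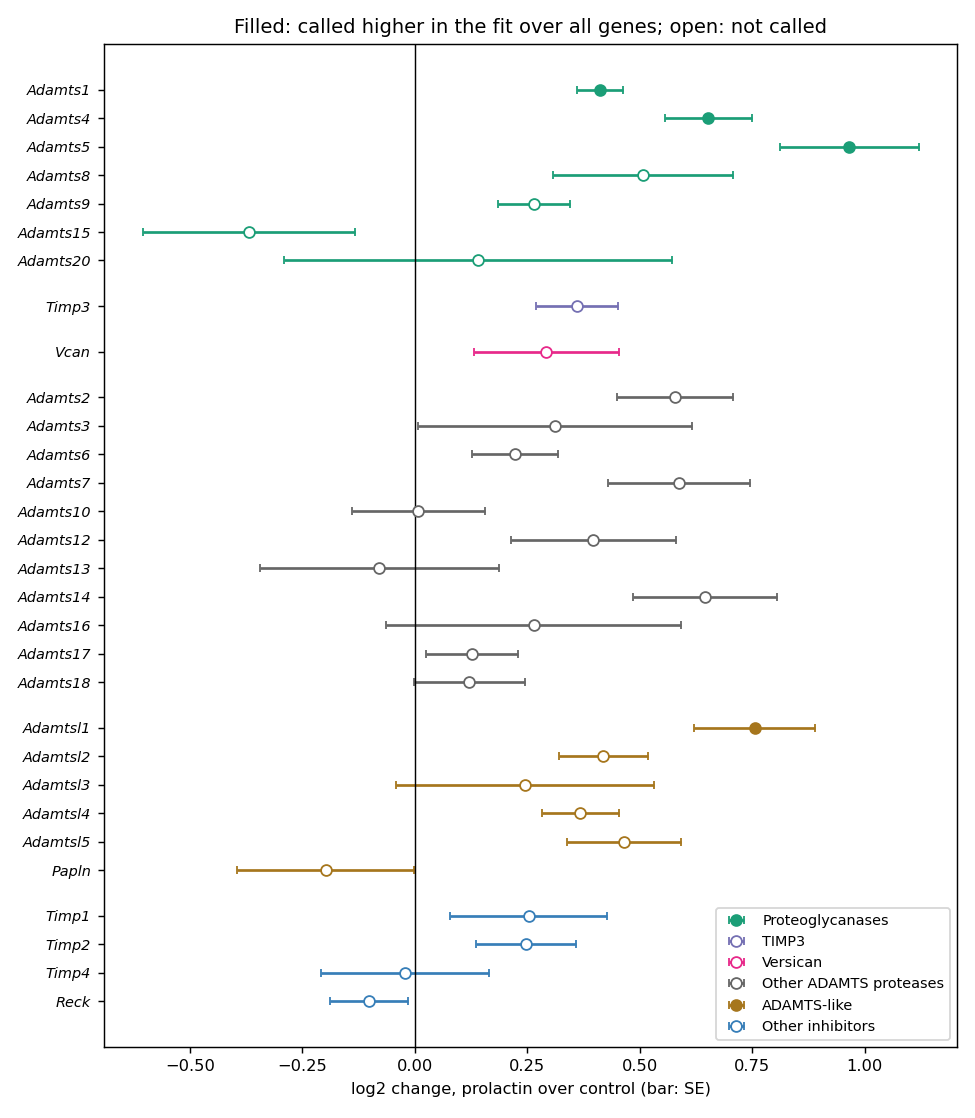
Log2 change of prolactin over control with its SE for the 9 genes, the other ADAMTS proteases, the ADAMTS-like genes and the other inhibitors. Filled points were called over all genes (Adamts1, Adamts4, Adamts5 and Adamtsl1); open points were not.

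The partners of versican in the matrix came next. Of 10 tested hyalectan, link protein, hyaluronan synthase and receptor genes 8 had a positive change, with a median of 0.18, and 0 were called by edgeR (3 higher by raw p under 0.05, 2 by DESeq2, 0 by limma-voom). Cd44, the hyaluronan receptor, had 107.0 ± 6.22 CPM in control and 128.2 ± 4.96 in prolactin islets, and Hapln4, a link protein that fixes proteoglycans to hyaluronan, 97.9 ± 6.69 and 120.7 ± 8.75. Aggrecan, the cartilage substrate after which ADAMTS4 and ADAMTS5 were named, was nearly absent, with 0.048 CPM for Acan in control and 0.059 in prolactin islets. All 13 genes of other substrates and small leucine-rich proteoglycans had a positive change, with a median of 0.34, and 0 were called (7 higher by raw p under 0.05, 5 by DESeq2, 0 by limma-voom). Control replicate 3 was below both other controls for 12 of the 13. Tenascin C (Tnc), a large glycoprotein of remodelled matrix, had the greatest change of these, from 128.1 ± 26.6 to 201.8 ± 13.9 CPM, with a log2 change of 0.66 and an adjusted p of 0.0687 in edgeR's test. Bgn, which encodes the proteoglycan biglycan, had a change of 0.39, and Tfpi2, an inhibitor of serine proteases held in the matrix, of 0.27. Without control replicate 3 the change of Bgn was 0.21.

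Genes for the activation and clearance of these enzymes gave no call among 10 tested (0 by edgeR, 5 higher and 0 lower by raw p under 0.05, 1 by DESeq2, 0 by limma-voom), with a median change of 0.24. Furin had 111.7 ± 8.32 CPM in control and 127.2 ± 3.75 in prolactin islets, a log2 change of 0.19. Lrp1, the clearance receptor, picked for mention after its values were seen, had 129.2, 125.2 and 127.2 CPM in control and 188.8, 154.7 and 162.4 CPM in prolactin libraries, with a log2 change of 0.41 (SE 0.076) and an adjusted p of 0.0535 in edgeR's test. The 20 genes that build chondroitin sulfate, the sugar chains of versican, had a median change of 0.05 with 12 positive and 0 called (6 higher and 1 lower by raw p under 0.05, 4 by DESeq2, 0 by limma-voom). Their most abundant members per kb, B3gat3, Chpf and Chst11, had changes of -0.08, 0.01 and -0.04.

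For the other metalloproteinase families the picture differed in its median but not in its calls. The 19 tested matrix metalloproteinases had a median change of 0.44 with 15 positive and 0 called (6 higher and 1 lower by raw p under 0.05, 1 by DESeq2, 0 by limma-voom). Mmp14, a membrane-bound collagenase, had 59.3, 55.0 and 41.5 CPM in control and 81.5, 69.0 and 67.5 CPM in prolactin libraries. Mmp3 (stromelysin 1) had 10.5 ± 4.98 CPM in control and 19.9 ± 6.68 CPM in prolactin libraries. In both genes control replicate 3 was the lowest library and prolactin replicate 1 the highest. The 12 genes of the ADAM family, membrane proteins of which many shed other proteins from the cell surface and some, Adam22 among them, lack an active protease site, had a median change of 0.07 with 7 positive and 0 called (4 higher and 2 lower by raw p under 0.05, 2 by DESeq2, 0 by limma-voom). Adam9, Adam10 and Adam22, the most abundant per kb, had changes of -0.05, 0.04 and -0.05.

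Marker genes of other islet cells were measured beside these results. All 21 stromal markers (of fibroblasts, stellate cells and pericytes; 1 of them, Lum, is also among the substrates above) had a positive change, with a median of 0.52, and 2, Col1a1 and Col1a2, were called higher. Over all genes tested, edgeR called 0.652% higher and 0.104% lower. By raw p under 0.05, 13 of the 21 were higher and 0 lower. DESeq2 called 9 higher and 0 lower, and limma-voom 2 and 0. For 16 of the 21 all prolactin libraries lay above all control libraries, beside 11.3% of all genes tested. The 9 members had a median change of 0.36, and 6 of them were separated in that way. The stromal markers summed to 793.7, 757.9 and 532.4 CPM in control and 1279, 1031 and 1043 CPM in prolactin libraries. Control replicate 3 was below both other controls for 19 of the 21. All 15 endothelial markers had a positive change, with a median of 0.17. Of these 1, Vwf, was called higher by edgeR (9 higher and 0 lower by raw p under 0.05, 5 by DESeq2, 1 by limma-voom). Their sum was 433.5 to 498.3 CPM in control and 506.6 to 519.1 CPM in prolactin libraries. No marker of any list was at 0 in all libraries. The part of these cells in the levels of the ADAMTS genes, Timp3 and Vcan was not tested.

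Macrophage markers summed to 128.6 to 132.8 CPM in control and 127.9 to 138.8 CPM in prolactin libraries, and 5 of 12 had a positive change. Acinar markers were uneven between libraries, at 583.1 to 3066 CPM in control and 943.4 to 2042 CPM in prolactin libraries, with a median change of -0.43. Of these 13 genes 1, Bhlha15, had a positive change, of 0.25, with no overlap of the groups. Duct markers summed to 1185 to 1761 and 1476 to 2031 CPM, and Schwann cell markers to 110.3 to 125.0 and 117.5 to 130.4 CPM. Markers of islet endocrine cells, led by the hormone genes, made up 166500 to 184700 CPM in control and 167900 to 170400 CPM in prolactin libraries. The defining markers of the labelled tissue were thus abundant. Of these 15 genes 1, the somatostatin gene Sst, was called lower by edgeR and 0 higher. Over all genes tested 0.104% were called lower and 0.652% higher. Of the 15, DESeq2 called 2 higher and 2 lower. All prolactin libraries lay above all control libraries for 3 of the 15 and below them for 4. Of all 23924 genes tested, 2695 were separated upward and 2483 downward in this way. Ppy had the greatest fall, with a log2 change of -0.74 and an adjusted p of 0.0708 in edgeR's test.

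The genes of the set did not all follow the libraries in the same way. Against the mean of the other controls, control replicate 3 differed on the log2 scale by -0.60 for Vcan, -0.55 for Adamts8, -0.29 for Timp3 and -0.24 for Adamts5, by -0.04 for Adamts4, and by 0.07 for Adamts1 and 0.16 for Adamts9. Against the mean of all 3 controls, a different base, the stromal markers in that library averaged -0.40 and the endothelial markers 0.10. On that base Vcan stood at -0.43, Adamts8 at -0.39, Timp3 at -0.20 and Adamts5 at -0.17. Adamts4 stood at -0.03, Adamts1 at 0.05 and Adamts9 at 0.10. Over the 6 libraries the Pearson correlation of log2 CPM was 0.98 between Timp3 and Adamts8 and 0.91 between Timp3 and Vcan, but 0.53 between Adamts1 and Vcan and 0.36 between Adamts9 and Vcan. Adamts4 and Adamts5 had a correlation of 0.98 with each other, and Adamts5 of 0.95 with Timp3, 0.91 with Adamts8 and 0.74 with Vcan. These are descriptions over 6 points that share the difference between the groups.

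**Figure D5:**
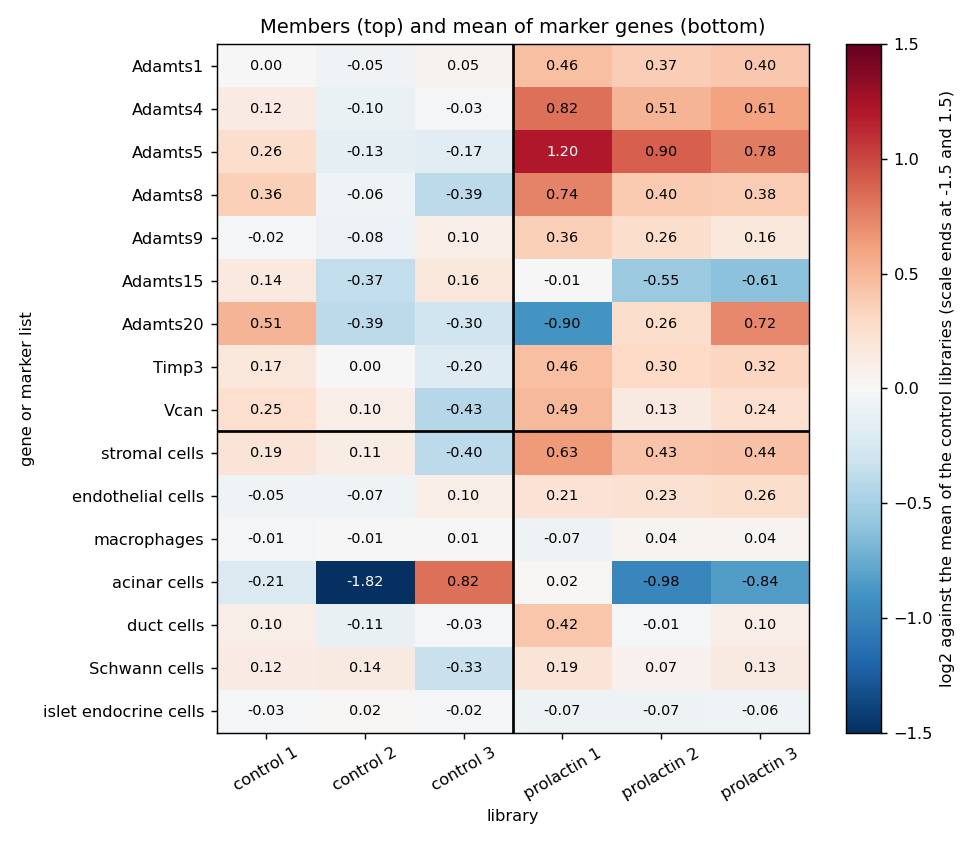
Log2 level of each gene (top) and mean log2 level of each marker list (bottom) in every library against the mean of the control libraries, as colour and printed value; colours end at 1.5 in either direction. In control replicate 3, Vcan (-0.43), Adamts8 (-0.39), Timp3 (-0.20), Adamts5 (-0.17) and the stromal markers (-0.40) were below the control mean and Adamts1 (0.05) was above it.

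The genes whose log2 CPM followed a called member most closely were named for description, out of 14791 candidates averaging 1 CPM or more. For Adamts1 they were Pde8b (Pearson r 0.999), Ovol2 (0.997), Dlc1 (0.997), Neb (0.996) and Alx4 (0.996), of which Ovol2 and Neb were themselves called higher. For Adamts4 they were Arhgef10, Plxnd1, Micall2, Rasgrp1 and C1qtnf1 (0.996 to 1.00), of which Plxnd1 was called higher. For Adamts5 they were Map4k4, Gprc5a, Trpc7, Lamb1 and C130074G19Rik (0.995 to 0.998), and these were not called. Correlation does not measure the size of a change. Among the genes named for Adamts5 alone, the log2 changes ran from 0.07 for Map4k4 to 0.82 for Trpc7. With any 1 library left out, the correlations of all the genes named here stayed at 0.993 or above, and all of them rest on 6 points. The genes were picked for high correlation over these same 6 libraries, so the leave-one-out values are no separate support.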

How the data were processed

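Gene expression was measured by RNA sequencing in 3 control and 3 prolactin libraries of mouse islets. Per the file headers, the authors counted whole reads with featureCounts 2.0.3 against GENCODE vM10, one count for each gene name. The recorded command has the paired-read option, none for counting pairs and none for strand. A fragment may therefore count once for each mate, and reads where genes on opposite strands overlap cannot be told apart. The submitters' processing notes name mm10, SAMtools 1.21, Subread 2.1.0 and DESeq2. The aligner was not given in the sources used here. A second deposited table holds the authors' log2 changes with SE, p-values and adjusted p-values, a mean signal for each gene and a score, the test statistic, per the file headers. DESeq2 1.42.0 with its defaults gave the authors' deposited log2 changes within 1e-06 for all 40905 genes that have one.

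Counts were scaled by TMM in edgeR 4.0.16 (R 4.3.3). Its filter for expressed genes, set to a count of 10 and a total of 15, left 23924 of 48397 genes. Prolactin was compared with control by the quasi-likelihood test, two-sided, with no covariates and Benjamini-Hochberg adjustment over those genes. CPM use TMM-scaled totals, and exon lengths are those of the gene models. No counting intervals are given, since mates may have been counted apart. The members and lists were chosen with earlier results of these data known. The rule for naming took all members, every called gene and the 3 most abundant per kb in each list, the 5 genes most correlated (log2 of CPM plus 0.01) with each called member, and genes whose exons overlap a member; some genes this rule gives are not reported here. Alternatives were other scalings and filters, DESeq2, limma-voom (limma 3.58.1), a replicate block, halved counts, prolactin replicates 2 and 3 summed, leaving out each library and, chosen after seeing the data, edgeR with its legacy option off. The edgeR, DESeq2 and limma-voom steps were tested on simulated data. Promoter windows are from RefSeq, on GRCm38.p6. No column of sample values was left out (0).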

Additional observations from a re-analysis of the deposited data

How the results depend on the processing

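Over all genes 181 were called. The number was 597 with no filter on low counts, 1079 with DESeq2, 598 with the replicate number as a block and 44 with prolactin replicates 2 and 3 summed, and it ranged from 40 to 576 when each library was left out in turn (40 and 41 without prolactin replicates 2 and 3, 94 without prolactin replicate 1, 73 without control replicate 2 and 576 without control replicate 3). Members called numbered 3; there were 5 with DESeq2 (Adamts9 and Timp3 besides), 0 with the summed replicates and 0 to 3 with a library left out. With the replicate block or with no filter Timp3 was called as well. Related genes called numbered 1; there were 17 with no filter, 22 with DESeq2, 17 with the replicate block, 0 with the summed replicates and 0 to 7 with a library left out, 7 being without control replicate 3. The cause of these differences was not tested. Scaling by DESeq2 size factors or the upper quartile, a filter of 1 CPM, limma-voom, halved counts and the legacy option moved none of the 3 counts by over 1.5 times.

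Changes with a library left out were read only for the members and for the reported related genes that the naming rule gave. Among these the sign turned for Adamts20 (log2 change -0.24 to 0.52), Chpf (-0.031 to 0.028), Chst11 (-0.12 to 0.055) and Hapln1 (-0.036 to 0.23). The replicate numbers were not taken as pairs. Same-numbered libraries had correlated deviations from their group means of 0.541, 0.324 and 0.0872 over 11590 genes. Control replicate 1 had -0.468 and -0.49 with prolactin replicates 2 and 3. Control replicate 2 had -0.381 with prolactin replicate 1 and 0.35 with prolactin replicate 3. Control replicate 3 had -0.101 with prolactin replicate 1 and 0.0918 with prolactin replicate 2, little different from its 0.0872 with prolactin replicate 3. Prolactin replicates 2 and 3 were closer to each other than any other pair within a group (chi-square per degree of freedom 6.61 against 77.5 to 205.8) but differed by more than sampling noise. They were analysed as separate samples, as labelled; these values do not show whether they share a culture. Adamts15 and Adamts20 rest on the fewest reads, at most 239 and 74 in a library. With all counts halved, the SE of their log2 changes was 0.234 and 0.416, against 0.236 and 0.431 as counted. Halving nearly keeps the ratios between libraries and adds no sampling noise, so it cannot show how far few reads limit these genes.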
